A study of Mus musculus with 68 samples.

Results

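Proteasome subunit genes were followed through mouse oocytes and early embryos in which the gene Ezhip had been deleted. They were taken by name, as every gene whose symbol begins with Psma, Psmb, Psmc, Psmd, Psme, Psmf or Psmg and continues with a digit. The rule took 50 genes of 24941 listed in any of 8 tables of FPKM (reads per gene, scaled to its length and to the library's total). Of these, 47 were kept, having 2 or more libraries of some table with 1 FPKM or higher, and 41 were kept in every table. Psma8, Psmb11 and Psme2b never reached that level. The libraries were made with Smart-seq2, which copies whole polyadenylated transcripts from few cells, and the study asked how Ezhip acts on the passage of H3K27me3, a repressive histone mark, between generations. Ezhip lies on the X chromosome and encodes an inhibitor of PRC2, the complex that writes the mark.

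Oocytes labelled FGO had 2 wild-type (WT), 2 Ezhip heterozygous (Het) and 3 Ezhip knockout (KO) libraries. Embryos were WT, mHet or mKO, terms of the labels that are not expanded there. Each genotype had 2 libraries at the 1-cell stage (labelled PN5), at the late 2-cell stage, in the first E3.5 table and, at E6.5, in both epiblast and extraembryonic ectoderm. The 8-cell stage had 2 WT, 1 mHet and 3 mKO libraries, and the second E3.5 table had 5 of each genotype. E4.25 had 4 WT, 4 mKO and 1 mHet library. No source used here gives the strain, the age of the females, the deleted part of the gene or the animals behind a library, so the p-values rest on a spread between libraries that may be technical.

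The proteasome is the protease that degrades proteins tagged with ubiquitin. Its 20S core is a stack of rings made of alpha and beta subunits, with the proteolytic sites on the inside of the beta rings, and its 19S cap binds, unfolds and de-ubiquitinates substrates before passing them to the core. Immune subunits can replace the catalytic beta subunits, other activators can replace the cap, and dedicated chaperones assemble core and base. In oocytes and early embryos the proteasome is known for clearing maternal proteins around fertilisation. The 50 genes comprised 7 alpha subunits, 4 structural and 3 catalytic beta subunits, 3 immunoproteasome subunits, 2 core subunits known from thymus and testis, 6 ATPases and 3 other subunits of the cap's base, 8 lid subunits, 4 activators, 1 inhibitor and 7 assembly chaperones. Psmc3ip, a meiotic recombination factor, matches by name alone, and Psme2b was given no role. The cap subunits encoded by Adrm1 and Shfm1 do not carry a Psm name and were counted among other genes of the ubiquitin system.

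Promoters of 6 members are shown: Psma7 and Psmb5 for the contrast of their levels across stages, and Psmb8, Psmb9, Psme1 and Psme2 as pairs of near neighbours whose levels are described by tissue. Each window is 300 bases of RefSeq sequence in build GRCm38.p6, written 5' to 3' on the gene's strand, with 250 bases before the start and 50 from the start on. Psma7 is at chr2:180042415-180042714 on the minus strand and Psmb5 at chr14:54617946-54618245 on the minus strand. Psmb8 is at chr17:34197945-34198244 on the plus strand and Psmb9 at chr17:34187281-34187580 on the minus strand. Psme1 is at chr14:55578244-55578543 on the plus strand and Psme2 at chr14:55591052-55591351 on the minus strand. Capitals mark matches, on either strand, to CCAAT (the CCAAT box), TGANNNNGC (core of the antioxidant response element), GAAA followed after any 2 bases by GAAA (core of the interferon-stimulated response element) or TTCNNNGAA (core of the gamma-activated site).
Psma7: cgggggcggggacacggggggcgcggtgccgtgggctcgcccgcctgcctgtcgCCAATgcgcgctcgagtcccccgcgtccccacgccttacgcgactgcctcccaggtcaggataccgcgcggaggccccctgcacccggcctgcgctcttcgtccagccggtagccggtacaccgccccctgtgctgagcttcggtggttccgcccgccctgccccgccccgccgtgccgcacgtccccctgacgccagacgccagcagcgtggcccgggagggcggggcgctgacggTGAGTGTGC
Psmb5: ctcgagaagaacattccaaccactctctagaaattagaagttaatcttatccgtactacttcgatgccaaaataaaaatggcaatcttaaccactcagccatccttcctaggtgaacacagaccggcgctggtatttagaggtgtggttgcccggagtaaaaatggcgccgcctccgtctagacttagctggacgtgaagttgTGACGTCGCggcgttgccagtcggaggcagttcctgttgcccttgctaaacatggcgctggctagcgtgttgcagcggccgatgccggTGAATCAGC
Psmb8: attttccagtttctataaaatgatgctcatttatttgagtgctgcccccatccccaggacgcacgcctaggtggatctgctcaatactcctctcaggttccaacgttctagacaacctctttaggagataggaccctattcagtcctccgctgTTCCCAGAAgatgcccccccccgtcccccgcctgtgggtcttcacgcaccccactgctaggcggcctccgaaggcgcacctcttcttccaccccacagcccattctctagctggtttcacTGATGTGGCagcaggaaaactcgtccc
Psmb9: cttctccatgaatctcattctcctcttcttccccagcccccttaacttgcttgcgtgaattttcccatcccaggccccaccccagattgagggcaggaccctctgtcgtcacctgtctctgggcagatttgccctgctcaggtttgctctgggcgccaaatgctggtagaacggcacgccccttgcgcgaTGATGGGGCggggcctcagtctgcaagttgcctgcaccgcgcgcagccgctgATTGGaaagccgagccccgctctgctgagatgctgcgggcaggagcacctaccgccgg
Psme1: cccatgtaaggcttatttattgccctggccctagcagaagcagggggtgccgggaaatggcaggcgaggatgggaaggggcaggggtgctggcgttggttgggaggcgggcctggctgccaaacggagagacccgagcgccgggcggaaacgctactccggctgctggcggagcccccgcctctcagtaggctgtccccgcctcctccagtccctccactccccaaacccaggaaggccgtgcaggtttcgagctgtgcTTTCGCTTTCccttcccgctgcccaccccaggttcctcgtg
Psme2: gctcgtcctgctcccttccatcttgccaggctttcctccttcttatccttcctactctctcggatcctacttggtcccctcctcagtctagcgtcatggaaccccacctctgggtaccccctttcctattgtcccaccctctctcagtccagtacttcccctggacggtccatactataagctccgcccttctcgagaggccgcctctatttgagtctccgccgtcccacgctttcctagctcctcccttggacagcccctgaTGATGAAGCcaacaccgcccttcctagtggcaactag

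No match overlapped another in these 6 windows. CCAAT was in Psma7 and Psmb9, the double GAAA in Psme1, and TTCNNNGAA in Psmb8. TGANNNNGC was in 5 of the 6, all but Psme1. Promoters of 42 members were in the RefSeq table, and 57.1% of them held TGANNNNGC, against 45.0% of the promoters of all 27025 genes. CCAAT was in 35.7% of the members and 41.1% of all genes, the double GAAA in 11.9% and 3.99%, and TTCNNNGAA in 7.14% and 9.55%. These are descriptions of letters and not of binding. In the RefSeq gene order, Psmb8 and Psmb9 stand on chromosome 17 with 1 protein-coding gene between them, and so do Psme1 and Psme2 on chromosome 14.

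Read depth cannot be known from these FPKM, and no counting interval is given. A library held 4940 to 9804 genes at 1 FPKM or more. Rn45s, the ribosomal RNA precursor, took 0.209 to 69.5% of the summed FPKM, and its share was highest in the second E3.5 table (9.19 to 69.5%) and at E4.25 (11.7 to 68.6%). Since FPKM are shares of a library, a high share of Rn45s lowers every other value. Ezhip was at 297 to 546 FPKM in WT oocytes and at most 0.175 in KO oocytes, at 15.7 to 15.9 in WT and at most 0.585 in mKO late 2-cell embryos, and at most 1.5 in any library from the 8-cell stage on, too low to check a label. At E6.5, a list of 7 epiblast genes summed to 731 to 1052 FPKM in the epiblast and 212 to 330 in extraembryonic ectoderm, and a list of 7 extraembryonic ectoderm genes to 7.71 to 57.6 and 282 to 460. Within the epiblast list, Dnmt3b was at 345 to 481 and 51.2 to 102, while Utf1 (84.2 to 331 and 97.4 to 240) and Pou3f1 (2.94 to 11.3 and 5.35 to 48.1) did not separate the tissues. Some libraries stood apart in the summed FPKM of the members. WT replicate 1 of the first E3.5 table was at 1694, against 4233 to 10750 in the other 5. In extraembryonic ectoderm, mHet replicate 2 was at 2819, against 5694 to 8808. In the second E3.5 table, mKO replicate 4 was at 388, against 847 to 5335. At E4.25, WT replicates 3 and 4 were at 181 and 279, against 379 to 1771 in the other libraries. In the first E3.5 table both mKO libraries summed to at most 0.152 FPKM of Y-linked transcripts and the WT and mHet libraries to 43.5 to 84.7, so sex and mKO cannot be told apart there. The tables were normalized separately, so levels of different stages stand side by side below and were not tested against each other. Fewer cells of a type and less RNA per cell cannot be told apart in such bulk samples.

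**Figure D1:**
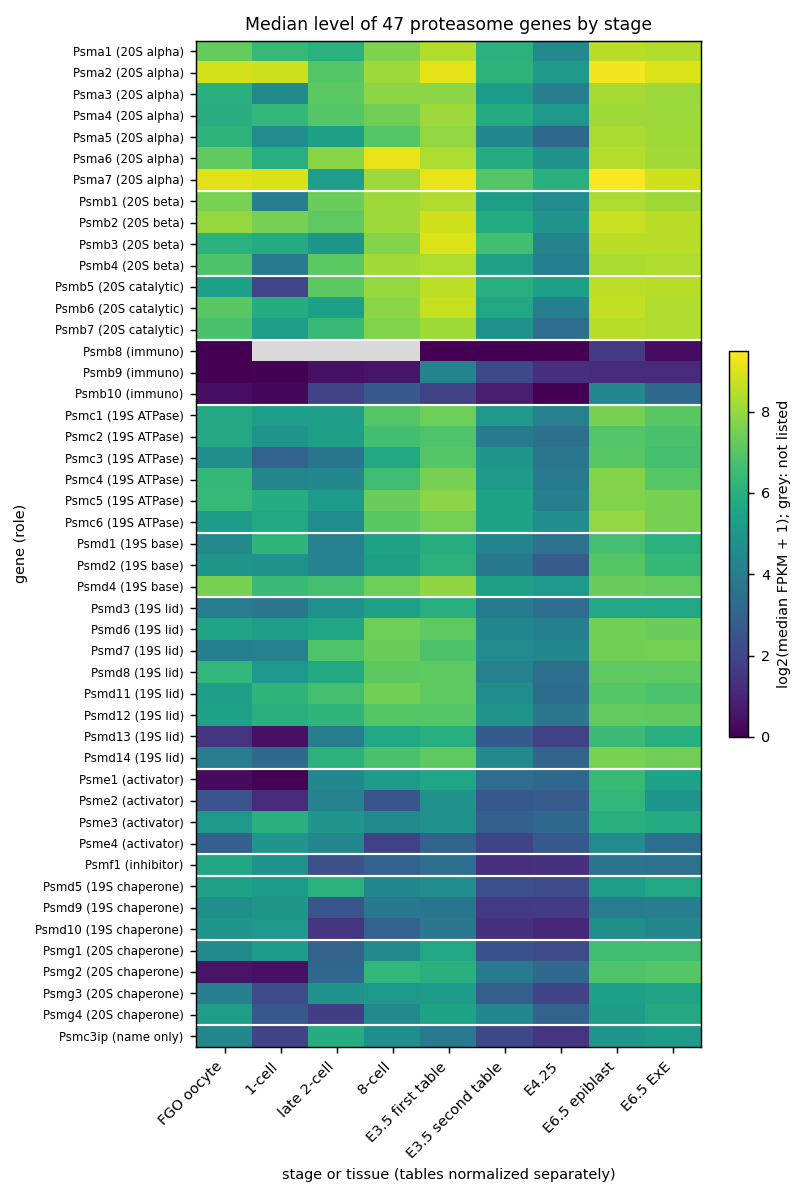
Median FPKM of the 47 kept members in each stage or tissue, as log2(median FPKM + 1) in colour, with genes ordered by role on the vertical axis, stages on the horizontal axis and grey where a table does not list the gene. The immunoproteasome genes, Psme1 and Psmg2 were near 0 in oocytes and 1-cell embryos. Core and cap subunits have medians above 0 at every stage, but the lid subunit Psmd13 was also low in 1-cell embryos, at 0.153 to 1.26 FPKM.

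Among the alpha subunits, Psma7 and Psma2 stood far above the other 5 in oocytes and 1-cell embryos. Psma7 ran from 382 to 675 FPKM in the 7 oocyte libraries, with a median of 532. It ran from 358 to 683 with a median of 487 in the 6 libraries of 1-cell embryos. In the 6 late 2-cell libraries it was at 27.2 to 83.8, with a median of 39.5, below every oocyte and 1-cell library. Psma2 was at 394 to 542 in oocytes and 418 to 446 at the 1-cell stage. In late 2-cell embryos Psma2 was at 86.6 to 168 and thus also lower, though less so than Psma7. The 2 genes were the top pair of the 14 constitutive core subunits in all 7 oocyte and all 6 libraries of 1-cell embryos, in none of the late 2-cell and 8-cell libraries, and again in 11 of the 12 libraries of E6.5. Psma6 took the lead in between. It was at 50.6 to 68.4 at the 1-cell stage, 154 to 333 at the late 2-cell stage and 480 to 758 at the 8-cell stage, where it was the highest core subunit in all 6 libraries. Psma3 went the same way as Psma6 between the first cleavages, with 17.0 to 28.3 at the 1-cell stage and 90.1 to 186 at the late 2-cell stage. Psma1 (75.2 to 110, then 44.8 to 98.4) and Psma4 (57.3 to 91.8, then 79.8 to 150) overlapped between these stages. Psma5 was the lowest core subunit in 13 of 15 libraries of the second E3.5 table, at 5.25 to 137 FPKM.

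The beta subunits carry the active sites, and the 3 catalytic ones were unequal in 1-cell embryos. Psmb5, with chymotrypsin-like activity, was at 1.04 to 4.12 FPKM with a median of 3.01. Psmb6, with caspase-like activity, was at 54.7 to 68.4, and Psmb7, with trypsin-like activity, at 20.0 to 46.6. Psmb5 was the lowest of the 14 core subunits in every oocyte library (26.2 to 64.5) and every 1-cell library. It was at 104 to 142 in late 2-cell embryos, above Psmb6 (27.9 to 56.8) in every library. In 8-cell embryos the 3 overlapped, with 204 to 310 for Psmb5, 153 to 342 for Psmb6 and 179 to 458 for Psmb7. At E3.5 and E4.25 Psmb7 was the lowest of the 3 within every library. In the second E3.5 table it took 1.64 to 3.06% of the summed FPKM of the constitutive core and cap subunits. Psmb6 took 3.17 to 6.52% and Psmb5 4.17 to 6.81% there. Structural subunits were unequal at the 1-cell stage as well. Psmb1 was at 10.2 to 16.9 and Psmb4 at 7.83 to 16.6, while Psmb2 was at 122 to 268. Psmb1 (129 to 179) and Psmb4 (96.5 to 167) were above their 1-cell values in every late 2-cell library. Psmb3 was lower at the late 2-cell stage (22.2 to 46.8) than in most 1-cell libraries (43.9 to 62.5).

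The evenness of the core can be read within a library, where the total cancels. The highest of the 14 core subunits was 9.51 to 19.8 times the lowest in oocytes and 105 to 654 times in 1-cell embryos. The ratio was 6.45 to 9.27 in late 2-cell embryos and 2.80 to 5.04 in 8-cell embryos. It was 2.29 to 2.61 in the epiblast and 1.89 to 2.29 in extraembryonic ectoderm, and the oocyte, 1-cell and E6.5 ranges did not overlap. The pair with the highest values took 53.1 to 68.5% of the summed core FPKM in 1-cell embryos and 19.0 to 20.9% in extraembryonic ectoderm. The second E3.5 table (3.42 to 8.16) and E4.25 (4.14 to 13.3), the tables with the highest shares of Rn45s, were less even than the first E3.5 table (2.50 to 3.35); whether the share of Rn45s has a part in this was not tested.

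**Figure D2:**
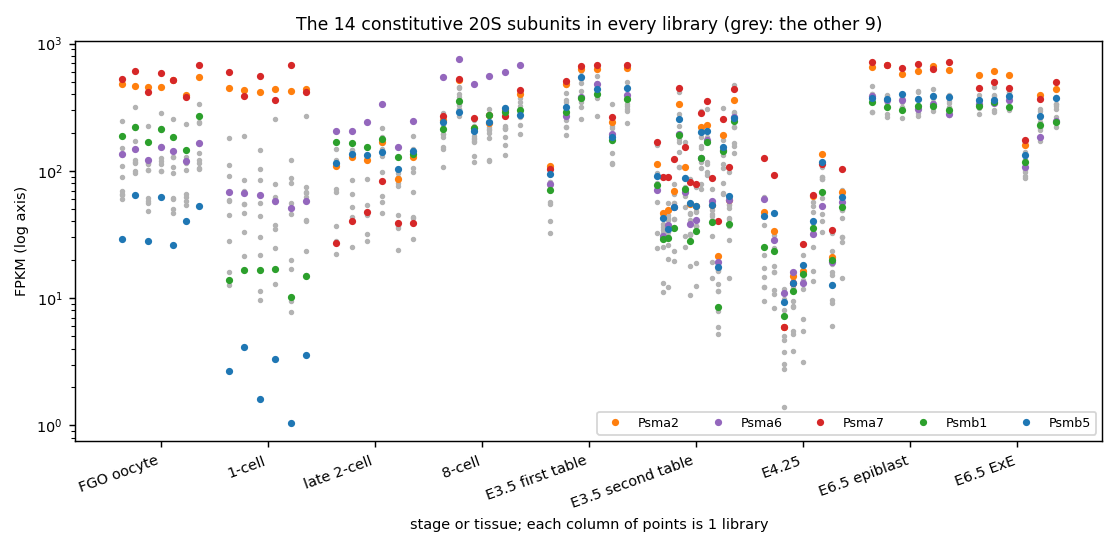
FPKM of the 14 constitutive 20S subunits on a log axis, with each column of points 1 library, stages side by side, 5 subunits in colour and the other 9 in grey. Psma7 and Psma2 lie at the top and Psmb5 at 1.04 to 4.12 FPKM at the bottom of the 1-cell libraries, and the points lie closest together at E6.5.

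The 19S cap was less abundant per gene than the core. The median core subunit was 1.42 to 1.89 times the median cap subunit in 1-cell libraries and 2.27 to 2.69 times in the epiblast. Psmd4, a ubiquitin receptor of the base, was the highest cap subunit in all 7 oocyte libraries, at 138 to 238 FPKM. Psmd13, a lid subunit, was the lowest there, at 0.738 to 3.95, and in 1-cell embryos, at 0.153 to 1.26. It was at 10.7 to 19.6 in late 2-cell and 41.7 to 58.0 in 8-cell embryos, with no overlap between these 3 stages. Psmd14, the lid enzyme that removes ubiquitin chains, was at 7.52 to 11.1 at the 1-cell stage and 55.5 to 85.7 at the late 2-cell stage. Psmd7, its partner in the lid, was at 13.7 to 22.0 and then 81.5 to 123. Both lid genes were thus higher in every late 2-cell than in every 1-cell library. Psmd1, the scaffold of the base, went the other way, with 61.8 to 84.3 at the 1-cell stage and 13.9 to 23.0 at the late 2-cell stage. Psmc5, an ATPase, also had lower values there, at 51.9 to 72.4 and then 19.9 to 46.0. Psmc3, another ATPase, was the cap subunit with the lowest mean at the late 2-cell stage (8.45 to 16.5). Psmd3 and Psmd2 had the lowest means of the 31 constitutive subunits in 8-cell embryos, at 44.6 and 40.9 FPKM.

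Of the immunoproteasome genes, Psmb9 had low values before the blastocyst. Psmb9 was at most 0.315 FPKM in oocytes, 0.241 at the 1-cell stage, 0.989 at the late 2-cell stage and 1.26 at the 8-cell stage. It was at 11.1 to 39.6 in the first E3.5 table and 0.587 to 14.3 in the second. It was at 0 to 4.21 at E4.25 and 0.396 to 1.39 in the epiblast, and its highest values of all stages came from the first E3.5 table. Psmb10 followed another order. It was at most 0.714 in oocytes, 1.12 to 4.65 in late 2-cell and 2.74 to 7.6 in 8-cell embryos, 0.727 to 5.10 in the first E3.5 table and 17.3 to 24.9 in the epiblast, its highest values anywhere. Psmb8 was listed in 5 tables and kept at E6.5 alone, where it reached 3.22 in the epiblast. As a share of the summed FPKM of catalytic and immune beta subunits, the 3 genes took at most 0.185% in oocytes, 1.44 to 5.38% in the first E3.5 table and 1.82 to 2.53% in the epiblast. At E4.25 the share ran from 0 to 14.2%, the upper end in WT replicate 3, which had 68.6% Rn45s.

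Of the activators, Psme1 and Psme2 form the interferon-inducible PA28 ring, Psme3 forms the nuclear ring, and Psme4 encodes PA200, a large single-chain activator. Psme1 was at most 0.232 FPKM in 1-cell embryos and at 8.87 to 45.1 in late 2-cell embryos. Psme2 was at 0.378 to 2.18 and then 8.57 to 25.6, but at 3.35 to 5.78 in 8-cell embryos, below every late 2-cell library. The PA28 partners thus diverged at the 8-cell stage, where Psme1 was at 25.6 to 46.7. Psme3 was at 44.9 to 68.5 at the 1-cell stage and 26.0 to 35.8 at the late 2-cell stage. Psme4 had its highest median at the 1-cell stage (24.1 to 36.2, median 29.7), and it was at 2.23 to 5.81 in 8-cell embryos and 16.4 to 28.2 in the epiblast. Psme2b is known as an intronless copy of Psme2, and reads of such near-identical genes may have been split between them. Psmf1, an inhibitor of the core, was at 41.7 to 84.2 in oocytes, 17.1 to 30.4 at the 1-cell stage and 1.69 to 5.39 at the late 2-cell stage, with no overlap between the 3.

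Assembly chaperones followed different orders across the stages. Psmd10, the X-linked chaperone also known as gankyrin, was at 19.2 to 69.0 FPKM in oocytes, 24.4 to 39.7 at the 1-cell stage and 1.2 to 3.6 at the late 2-cell stage. Psmd9 was at 24.2 to 42.1 and then 2.89 to 6.78. Psmd5, the other chaperone of the base, was at 21.9 to 36.9 and then 55.2 to 70.2, thus higher at the late 2-cell stage, and at 14.5 to 37.3 in 8-cell embryos. The core chaperones act as the pairs Psmg1 with Psmg2 and Psmg3 with Psmg4. Psmg1 was at 34.2 to 42.6 at the 1-cell stage and 5.50 to 9.99 at the late 2-cell stage, whereas Psmg2 was at most 0.695 and then at 5.14 to 12.4. Psmg3 was at 2.37 to 6.23 and then 21.3 to 31.2, whereas Psmg4 was at 4.24 to 8.23 and then 1.32 to 7.09. Psmg1 thus stood above its partner in every 1-cell library and overlapped with it at the late 2-cell stage, while Psmg3 stood above its partner in every late 2-cell library. At E6.5 Psmg1 (81.8 to 106) and Psmg2 (94.6 to 146) overlapped in the epiblast. Psmc3ip, no proteasome subunit, was at 1.31 to 4.21 at the 1-cell stage and 46.5 to 74.3 at the late 2-cell stage. Of the members never kept, Psma8, the testis alpha subunit, reached 1.49 in 1 epiblast library, Psme2b reached 1.02 in a late 2-cell library, and Psmb11, the thymus beta subunit, was at most 0.576 in any library.

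Comparisons between genotypes used limma on log2(FPKM + 1) within a table, with p-values adjusted over all genes kept by Benjamini and Hochberg and a threshold of 0.05. Fold changes are on that log2 scale, which understates the change of low genes. No member passed between KO and WT oocytes (0 of 43, against 0.0102% of all genes called). At an unadjusted p under 0.05, 0 members and 0.112% of all genes were called. The members' median log2 difference was -0.06 and that of all genes -0.05. It was -0.59, with 3 of 43 members higher, without WT replicate 1 and 0.42, with 40 of 43 higher, without WT replicate 2. A replicate block gave a median of -0.39, but it joins KO 2 to WT 2, which lie in different sets of library numbers. The deviations of KO 2 and WT 2 from their group means correlated at -0.332. Psmd2, a scaffold of the base, had the smallest p on the higher side. It was at 16.6 and 31.4 FPKM in WT and 26.4, 36.1 and 31.7 in KO, which overlap (log2 difference 0.43, SE 0.58, limma adjusted p = 1). Psmg4 was at 30.4 and 41.2 in WT and 39.0, 36.5 and 54.8 in KO. On the lower side, Psma1 was at 152 and 171 in WT and 129, 118 and 162 in KO, and Psmb3 at 65.3 and 117 in WT and 46.9, 62.0 and 121 in KO. Within each genotype the higher Psmb3 value came from the library of a second set of library numbers (WT 2 and KO 3), and those libraries with Het 2 also had the highest summed FPKM of members (4713 to 5196, against 2922 to 3309). No member passed between Het and WT oocytes either (0 of 43, with 0% of all genes called; 0 members and 0.0713% at an unadjusted p under 0.05). Psme2 was at 1.24 and 14.4 in WT and 4.36 and 19.4 in Het, and Psmd3 at 11.7 and 13.8 in WT and 17.5 and 17.9 in Het, the latter without overlap. Psma7 was at 532 and 614 in WT and 418 and 592 in Het, and Psma1 at 113 and 156 in Het.

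At the 1-cell stage no member passed for mKO against WT (0 of 41, with 0.0116% of all genes called; 1 member and 2.49% at an unadjusted p under 0.05). Psmg3 was that member, at 3.74 and 6.23 FPKM in WT and 2.37 and 2.49 in mKO, without overlap (log2 difference -0.77, SE 0.29, limma adjusted p = 1). In 13 of 41 members both mKO libraries were below both WT libraries, against 16.9% of all genes. Psmc5 was one of them, at 72.4 and 71.8 in WT and 51.9 and 58.4 in mKO. In mHet it was at 54.4 and 58.2, close to mKO, and these comparisons share the WT libraries. Psmg4 was at 5.32 and 4.24 in WT, 8.23 and 5.09 in mKO and 7.54 and 4.50 in mHet, which overlap. Psme4 was higher without overlap in both, at 26.6 and 24.1 in WT, 36.2 and 26.8 in mKO and 35.1 and 32.7 in mHet. Replicates 1 and 2 of this stage lie in different sets of library numbers. In WT, mHet and mKO, Psma7 was at 602, 559 and 683 FPKM in replicate 1. It was at 385, 358 and 415 in replicate 2. For mHet against WT no member passed (0 of 41, with 0% of all genes called; 0 members and 0.837% at an unadjusted p under 0.05), and Psmc3ip was at 4.21 and 3.22 in WT and 1.31 and 2.90 in mHet.

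In late 2-cell embryos no member passed for mKO against WT (0 of 45, with 0.00969% of all genes called; 3 members and 7.56% at an unadjusted p under 0.05). Psma4 was at 148 and 135 FPKM in WT and 79.8 and 97.7 in mKO (log2 difference -0.67, SE 0.25, limma adjusted p = 0.597). Psma5 was at 36.9 and 52.4 in WT and 23.9 and 29.2 in mKO. Psmb3 was on the other side, at 22.2 and 25.2 in WT and 35.6 and 43.1 in mKO (log2 difference 0.70, SE 0.29, limma adjusted p = 0.628). None of these 3 overlapped between the groups. Psmb10 was higher in mKO as well, at 1.12 and 2.38 in WT and 4.65 and 2.98 in mKO. Of all 45 members 15 were lower without overlap, against 23.3% of all genes. For mHet against WT no member passed (0 of 45, with 0% of all genes called; 2 members and 2.94% at an unadjusted p under 0.05), and 13 were higher without overlap, against 16.4% of all genes. Psmg4 was at 2.44 and 2.27 in WT and 7.09 and 7.04 in mHet (log2 difference 1.27, SE 0.31, limma adjusted p = 1), and Psma7 at 27.2 and 40.0 in WT and 47.2 and 83.8 in mHet. Psmg1 was at 9.99 and 5.74 in WT and 6.18 and 5.50 in mHet, and Psmf1 at 4.59 and 4.60 in WT and 1.69 and 5.39 in mHet. Psmg4 was at 1.83 and 1.32 in mKO, below WT in both libraries, and that comparison shares the WT libraries. The members' median log2 difference for mHet against WT was 0.26, with 37 of 45 members higher, and it was 0.03, with 23 of 45 higher, without mHet replicate 2.

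In 8-cell embryos no member passed for mKO against WT (0 of 45, with 0.0120% of all genes called; 0 members and 4.01% at an unadjusted p under 0.05). Psma4 had the smallest p, at 186 and 271 FPKM in WT and 123, 159 and 194 in mKO, which overlap (log2 difference -0.52, SE 0.33, limma adjusted p = 0.999). Psmd3, a scaffold of the lid, was at 31.3 and 33.1 in WT and 51.2, 67.7 and 31.7 in mKO. Here 2 mKO libraries stood above WT and mKO replicate 3 between the WT values. Psmg4 was at 25.3 and 28.9 in WT and 17.0, 22.0 and 22.2 in mKO, without overlap. WT replicate 2 and mKO replicate 3, which belong to a second set of library numbers, had member sums of 9255 and 7512 FPKM. The members' median log2 difference was -0.10, and it was -0.56, with 2 of 45 higher, without WT replicate 1 and 0.37, with 40 of 45 higher, without WT replicate 2. Psmf1 was at 4.57 and 7.64 in WT and 6.28, 8.74 and 9.00 in mKO.

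In the first E3.5 table no member passed for mKO against WT (0 of 46, with 0.0407% of all genes called; 0 members and 5.48% at an unadjusted p under 0.05). The members' median log2 difference was 0.82 and that of all genes 0.22, and 43 of 46 members were higher. Without WT replicate 1 the median turned to -0.12, with 13 of 46 higher. Psmd3 was at 20.0 and 38.6 FPKM in WT and 47.2 and 94.2 in mKO, without overlap (log2 difference 1.23, SE 0.67, limma adjusted p = 0.949). Psmb3 was at 76.2 and 469 in WT and 334 and 652 in mKO. Psmd10 went the other way, at 1.26 and 19.1 in WT and 1.61 and 8.54 in mKO, and Psme1 was at 20.6 and 53.3 in WT and 22.7 and 44.1 in mKO. In all of these the low WT value came from WT replicate 1.

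For mHet against WT in that table no member passed (0 of 46, with 0% of all genes called; 5 members and 7.75% at an unadjusted p under 0.05). In 40 of 46 members both mHet libraries were above both WT libraries, against 40.0% of all genes. The median log2 difference of the members was 1.54 and that of all genes 0.43. It was 0.59 for the members, with 43 of 46 higher, without WT replicate 1. Psmd2 was at 14.5 and 54.5 FPKM in WT and 98.8 and 168 in mHet (log2 difference 2.15, SE 0.80, limma adjusted p = 0.502). Psmd11, a lid subunit, was at 28.1 and 107 in WT and 206 and 261 in mHet. Psmb9 alone had a negative difference, at 11.1 and 39.6 in WT and 15.7 and 19.9 in mHet. Its mHet values lay between the WT values. Removing Rn45s moved the median of all genes to -0.12 and of the members to 0.87, and median ratio scaling moved them to 0.07 and 1.09. For mKO, the same settings moved the median of all genes to -0.18 and 0.04 and that of the members to 0.37 and 0.60.

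In the second E3.5 table, where every genotype had 5 libraries, no member passed for mKO (0 of 46, with 0.0539% of all genes called; 0 members and 5.76% at an unadjusted p under 0.05). The members' median log2 difference was 0.02 and that of all genes -0.10. It was -0.36, with 2 of 46 members higher, without mKO replicate 7 and 0.47, with 42 of 46 higher, without mKO replicate 4. Psme1 was at 9.6, 7.53, 6.23, 8.97 and 23.3 FPKM in WT and 5.15, 1.85, 9.49, 9.68 and 13.5 in mKO, which overlap (log2 difference -0.49, SE 0.46, limma adjusted p = 1). Psmc5 was at 44.8, 19.1, 24.1, 42.0 and 95.2 in WT and 45.3, 20.7, 67.4, 41.0 and 135 in mKO. Psmd6, a lid subunit, was at 10.6 to 52.5 in WT and 7.72 to 70.3 in mKO. Within each genotype the spread was wide, and WT replicate 7 was the highest WT library for each of these. Psmd10 was at 0.849 to 8.36 in WT and 0.205 to 2.32 in mKO, and Psmb9 at 0.750 to 10.4 and 0.587 to 14.3. For mHet against WT no member passed (0 of 46, with 0% of all genes called; 0 members and 1.62% at an unadjusted p under 0.05). Psmb10 was at 0.0916 to 1.76 in WT and 0 to 2.98 in mHet, and Psmg3 at 3.03 to 20.1 in WT and 3.78 to 28.6 in mHet. On the lower side, Psmd3 was at 7.93 to 26.0 in WT and 5.59 to 28.4 in mHet, and Psmc6 at 30.8 to 91.2 and 25.4 to 72.2. All 4 overlapped between the genotypes.

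At E4.25, late in the blastocyst, 4 members rose in mKO against WT and none fell (4 of 45, with 14.3% of all genes called as higher). They were an ATPase of the base, Psmc3, a structural beta subunit, Psmb3, an alpha subunit, Psma3, and a subunit of the PA28 ring, Psme2. The members' share called was thus below that of all genes. Of the 45 members, 44 had a positive difference, as did 86.2% of all genes, and the median log2 difference was 1.13 for the members and 0.74 for all genes. Under median ratio scaling, 32 of 45 members were higher, with medians of 0.19 for the members and 0.05 for all genes. With Rn45s removed, 36 of 46 were higher, with medians of 0.33 and 0.15, and no member passed under either scaling.

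Psmc3 was at 11.5, 3.2, 1.59 and 12.2 FPKM in WT, 8.24 in mHet and 29.0, 32.5, 18.9 and 52.2 in mKO. Every mKO library stood above every WT library, and the means were 33.1 ± 13.9 (SD, n = 4) and 7.12 ± 5.50 (SD, n = 4; log2 difference 2.30, SE 0.65, limma adjusted p = 0.0297). Psmb3 was at 12.2, 17.9, 2.76 and 12.0 in WT, 14.0 in mHet and 39.0, 89.6, 23.6 and 70.8 in mKO. These groups did not overlap either (log2 difference 2.26, SE 0.69, limma adjusted p = 0.0395). Psma3 was at 12.2, 10.8, 8.07 and 8.66 in WT, 15.6 in mHet and 53.0, 61.6, 18.5 and 48.8 in mKO. The WT libraries lay close together and all 4 mKO libraries above them (log2 difference 1.98, SE 0.60, limma adjusted p = 0.0397). Psme2 was at 0.573, 5.87, 3.56 and 1.34 in WT, 2.33 in mHet and 5.62, 13.9, 6.41 and 16.1 in mKO. The lowest mKO library lay below the highest WT library (log2 difference 1.69, SE 0.54, limma adjusted p = 0.0483). In 6 of 45 members the mKO libraries were all above the WT libraries, against 21.6% of all genes.

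Members just outside the threshold were the catalytic subunit Psmb7 (limma adjusted p = 0.0647), Psmd14 (0.0679) and Psme1 (0.0709). Psmd14 was at 7.49, 6.60, 2.13 and 3.75 FPKM in WT and 13.0, 17.5, 10.6 and 15.7 in mKO, without overlap. Psmb5, by contrast, overlapped widely, at 44.5, 46.9, 9.31 and 13.1 in WT and 40.1, 118, 12.7 and 61.9 in mKO. Psme3 had the only difference that was not positive (log2 difference -0.0028), at 21.7, 17.3, 2.68 and 2.25 in WT and 8.32, 13.0, 3.21 and 8.01 in mKO. Rn45s took 21.0, 38.6, 68.6 and 60.5% of the summed FPKM in WT and 24.2, 11.7, 52.4 and 26.7% in mKO, and its part in the differences was not tested beyond the scalings above. Replicates 3 and 4 of both WT and mKO lie in a second set of library numbers, and in each genotype that set held the highest Rn45s shares. Marker lists of the cell types differed as well: the 5 inner cell mass genes summed to 16.0 to 19.6 FPKM in WT and 34.8 to 83.1 in mKO, 6 primitive endoderm genes to 9.64 to 30.6 and 41.1 to 55.1, and 7 trophectoderm genes to 35.2 to 369 and 284 to 1034. Of the inner cell mass genes, Nanog, Sox2 and Fgf4 overlapped between WT and mKO. Pou5f1 (0.0621 to 1.39 in WT and 4.78 to 25.1 in mKO) and Klf2 (7.40 to 12.0 and 12.35 to 38.0) did not overlap. Genes within the last 2 lists did not move together. Gata6 was at 1.67 to 17.7 in WT and 36.3 to 47.1 in mKO, while Gata4, Sox17, Pdgfra and Sox7 overlapped and Foxa2 reached 4.73 in WT and 0.491 in mKO. Among trophectoderm genes Krt18 was at 20.0 to 104 and 170 to 597 and Cdx2 at 0 to 2.67 and 8.27 to 12.7, while Krt8, Gata3 and Eomes overlapped, Tfap2c reached 120 in WT and 19.3 in mKO, and Elf5 reached 8.78 and 3.38. Their part in the result was not tested. No member passed without mKO replicate 1, 2 or 4, 1 passed without WT replicate 4, 2 without WT replicate 2, and 9 each without WT replicate 1 or mKO replicate 3.

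**Figure D3:**
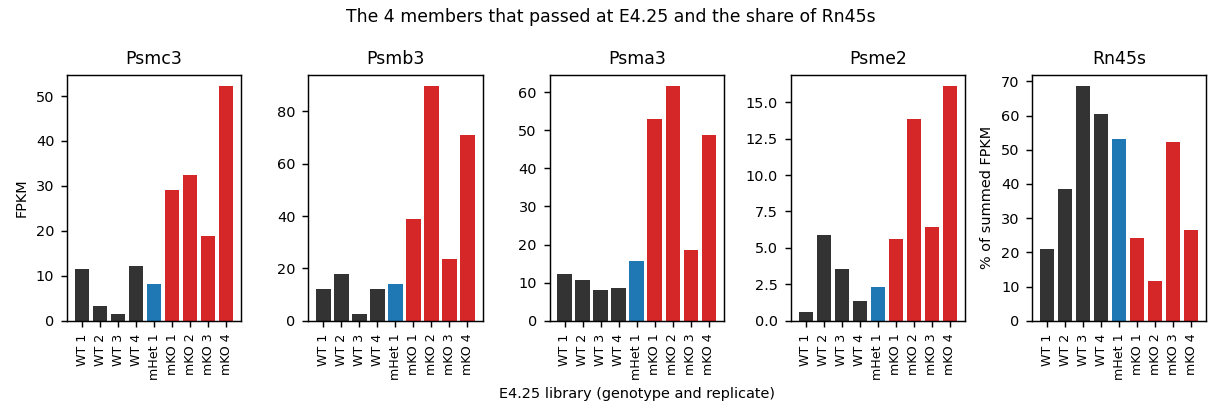
FPKM of the 4 members that passed at E4.25 and, in the last panel, the percent of summed FPKM taken by Rn45s, with 1 bar for each library and WT, mHet and mKO in order. The mKO bars of Psmc3, Psmb3 and Psma3 stand above all WT bars and those of Psme2 overlap with WT, while WT replicates 3 and 4 have the highest Rn45s, at 68.6 and 60.5%.

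In the E6.5 epiblast no member passed for mKO against WT (0 of 47, with 0.00907% of all genes called; 1 member and 4.44% at an unadjusted p under 0.05). That member was the immunoproteasome subunit Psmb8, at 0.500 and 1.70 FPKM in WT and 3.06 and 3.22 in mKO (log2 difference 1.04, SE 0.30, limma adjusted p = 0.961). In mHet, which is compared with the same WT libraries, it was at 1.83 and 2.62, also above WT. Psmg3 was at 45.4 and 45.9 in WT and 31.7 and 35.9 in mKO, without overlap. Psmd3 was at 33.2 and 46.7 in WT and 54.0 and 55.5 in mKO, and Psmg4 at 45.7 and 37.4 and then 36.9 and 31.4. Among all 47, 24 were higher and 23 lower, with a median log2 difference of 0.02. For mHet against WT no member passed (0 of 47, with 0.0272% of all genes called; 1 member and 3.56% at an unadjusted p under 0.05). That member was on the higher side, where Psmb8, with the low mHet values given above, had the largest difference (log2 difference 0.67). Of the others, Psme1 was at 82.3 and 78.1 in WT and 85.0 and 113 in mHet, and Psme4 at 28.2 and 24.3 in WT and 16.4 and 21.3 in mHet. Psmc6, an ATPase, was at 293 and 257 in WT and 244 and 170 in mHet.

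In the extraembryonic ectoderm, the part of the trophoblast that borders the epiblast, no member passed for mKO against WT (0 of 47, with 0% of all genes called; 2 members and 7.74% at an unadjusted p under 0.05). Psme4 was at 17.7 and 18.3 FPKM in WT and 4.97 and 9.78 in mKO (log2 difference -1.24, SE 0.36, limma adjusted p = 0.464). In mHet it was at 9.85 and 9.77, below WT as well. Psmb8, kept through the epiblast alone, was at 0.808 and 0.396 in WT and listed at 0 in both mKO libraries. All 47 members had a negative difference, with a median log2 of -0.47 against -0.19 for all genes. In 36 of 47 both mKO libraries were below both WT libraries, against 37.4% of all genes. Under median ratio scaling 10 of 47 were higher, with medians of -0.23 for the members and -0.01 for all genes, and with Rn45s removed 9 of 47, with -0.28 and -0.05. Rn45s took 8.11 and 3.32% in mKO and 1.84 and 2.43% in WT.

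For mHet against WT in that tissue no member passed (0 of 47, with 0% of all genes called; 3 members and 5.89% at an unadjusted p under 0.05). The members' median log2 difference was -0.78, with 2 of 47 higher, and 0.04, with 31 of 47 higher, without mHet replicate 2, whose Rn45s share was 11.6%. Psmd10 was at 26.3 and 26.5 FPKM in WT and 21.1 and 2.40 in mHet, the last value from that library. Psmb9 was at 0.683 and 3.15 in WT and 3.22 and 1.03 in mHet, and Psmg4 at 51.2 and 54.2 and then 47.8 and 68.6. The mKO effects of both tissues were also set against each other. No member passed (0 of 47, with 0% of all genes called). At an unadjusted p under 0.05, 2 members and 3.41% of all genes were called. Psmb8, under 1 FPKM in every library of this tissue, had a difference of effects of -1.71 on the log2 scale (SE 0.42, limma adjusted p = 0.972), and Psme4 followed at -1.11 (SE 0.51).

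**Figure D4:**
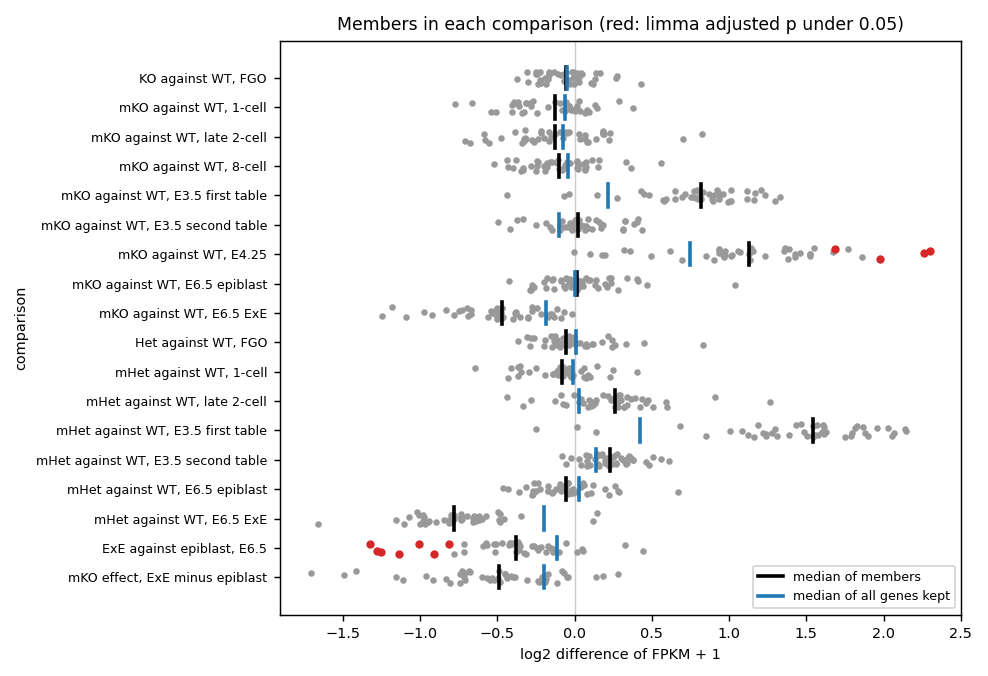
Log2 differences of the members in each comparison, with 1 point for each member, red where it passed, a black bar at the members' median and a blue bar at that of all genes kept. Medians of both lie near 0 in oocytes, 1-cell and 8-cell embryos, and the members' median lies above that of all genes in both comparisons of the first E3.5 table.

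Between the tissues of E6.5, 7 members fell in extraembryonic ectoderm relative to epiblast and none rose (7 of 47, with 19.4% of all genes called as lower). Without Psmb8, which was kept only through the epiblast, the count was 6 of 46. The 7 were the immunoproteasome subunits Psmb8 and Psmb10, the PA28 subunits Psme1 and Psme2, PA200 (Psme4), the alpha subunit Psma7 and the ATPase Psmc4. The other core and cap subunits did not pass the test. Libraries of both tissues were tested as independent, and no source used here says whether they share embryos. The median log2 difference was -0.38 for the members and -0.11 for all genes, with 5 of 47 members higher. It was -0.27 and -0.02, with 7 higher, under median ratio scaling, and -0.22 and 0.02, with 9 higher, with Rn45s removed. Without mHet replicate 2 of the extraembryonic ectoderm 7 members passed and 16 of 47 were higher, at a median of -0.07.

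In the epiblast, Psmb10 was at 21.5 and 20.0 FPKM (WT), 20.5 and 24.9 (mHet) and 17.3 and 20.2 (mKO). In extraembryonic ectoderm it was at 10.1 and 10.6, 6.87 and 5.58, and 5.68 and 10.4 in the same order. No library of one tissue reached the other, and the means were 8.20 ± 2.41 and 20.7 ± 2.47 (SD, n = 6 each; log2 difference -1.27, SE 0.20, limma adjusted p = 0.000304). Psmb8 was at 0.500 and 1.70, 1.83 and 2.62, and 3.06 and 3.22 in the epiblast and at 0.808 and 0.396, 0.210 and 0.289, and 0 and 0 in extraembryonic ectoderm. The tissues overlapped among the WT libraries (log2 difference -1.25, SE 0.17, limma adjusted p = 0.000121), and Psmb8 was too low to be tested in WT alone. It reached 1 FPKM in epiblast libraries alone and was kept through them, so that it had to differ and its p lends no support. Psmb9, the near neighbour of Psmb8, did not pass (log2 difference 0.32, limma adjusted p = 0.36), at 0.396 to 1.39 in the epiblast and 0.683 to 3.22 in extraembryonic ectoderm.

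In the epiblast, Psme2 was at 75.4 and 54.0 FPKM (WT), 62.6 and 94.3 (mHet) and 80.8 and 81.2 (mKO). It was at 42.2 and 35.5, 28.9 and 16.8, and 23.7 and 32.4 in extraembryonic ectoderm, all below the epiblast (log2 difference -1.33, SE 0.22, limma adjusted p = 0.000586). Psme1 was at 82.3 and 78.1, 85.0 and 113, and 82.4 and 90.1 in the epiblast and 54.2 and 45.2, 46.4 and 26.1, and 28.0 and 45.1 in extraembryonic ectoderm. Again no library overlapped (log2 difference -1.13, SE 0.22, limma adjusted p = 0.00171). Psme3, which forms the other PA28 ring, did not pass (log2 difference -0.22, limma adjusted p = 0.522). Psme4 was at 28.2 and 24.3, 16.4 and 21.3, and 21.3 and 26.6 in the epiblast and 17.7 and 18.3, 9.85 and 9.77, and 4.97 and 9.78 in extraembryonic ectoderm. The WT libraries of the latter reached the lowest epiblast library (log2 difference -1.0, SE 0.21, limma adjusted p = 0.00237).

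In the epiblast, Psma7 was at 713 and 685 FPKM (WT), 643 and 696 (mHet) and 627 and 711 (mKO). In extraembryonic ectoderm it was at 445 and 499, 452 and 176, and 369 and 502, all lower (log2 difference -0.81, SE 0.23, limma adjusted p = 0.0163). Psmc4 was at 195 and 220, 219 and 171, and 206 and 234 in the epiblast and 156 and 182, 172 and 39.5, and 88.9 and 100.5 in extraembryonic ectoderm. The tissues overlapped, and Psmc4 passed in 5 of 17 settings (log2 difference -0.91, SE 0.31, limma adjusted p = 0.038). Psmb10, Psme1 and Psme2 passed in all 17 settings and Psme4 in 16, with the exception of WT libraries alone (log2 difference -0.52, limma adjusted p = 0.0753). Psma7 passed in 15, and not without the epiblast mKO library of column 4 or without mKO replicate 1 of the extraembryonic ectoderm. The catalytic Psmb5 did not pass (log2 difference -0.36, limma adjusted p = 0.302), and Psmg4 had the highest positive difference (0.45, SE 0.22, limma adjusted p = 0.144).

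In WT libraries alone, 5 of 46 members passed, against 25.8% of all genes, namely the lower Psmb10, Psme1, Psme2 and Psma7 and the higher Psmd5, which had not passed over all genotypes. Psmd5 was at 33.9 and 41.6 FPKM in WT epiblast and 63.4 and 71.1 in WT extraembryonic ectoderm (log2 difference 0.82, SE 0.18, limma adjusted p = 0.015), but at 11.4 to 34.7 in 3 of the other 4 libraries of that tissue. The members' median there was -0.01, with 22 of 46 higher. Without mHet replicate 1 of the extraembryonic ectoderm, which leaves mHet replicate 2 alone in its group, 40 of 47 members passed, 1 higher and 39 lower, against 49.3% of all genes. Markers of maternal decidua and blood, in which PA28 and immunoproteasome genes are also active, summed to 1.62 to 4.85 FPKM in the epiblast and 0.305 to 1.65 in extraembryonic ectoderm. Of these 7 genes, Dcn, of stromal cells, was at 0.233 to 2.61 in the epiblast and at 0 in all 6 libraries of extraembryonic ectoderm. Des, of muscle-type cells, was at 0.910 to 1.61 and 0.274 to 1.29, Col1a2 at 0.0603 to 0.275 and at most 0.118, and the globin gene Hba-a1 at 0 to 1.09 and at most 0.0780. Ptprc, which marks leukocytes, was at most 0.0820 and at 0 in 4 of 6 epiblast libraries, and at most 0.0304 and at 0 in 5 of 6 of extraembryonic ectoderm. Prl8a2 and Hbb-b1 were at 0 in all 6 epiblast libraries and in 5 of 6 of extraembryonic ectoderm. Their part in the tissue difference was not tested. Visceral endoderm genes summed to 0.519 to 1.97 and 0.603 to 26.4.

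**Figure D5:**
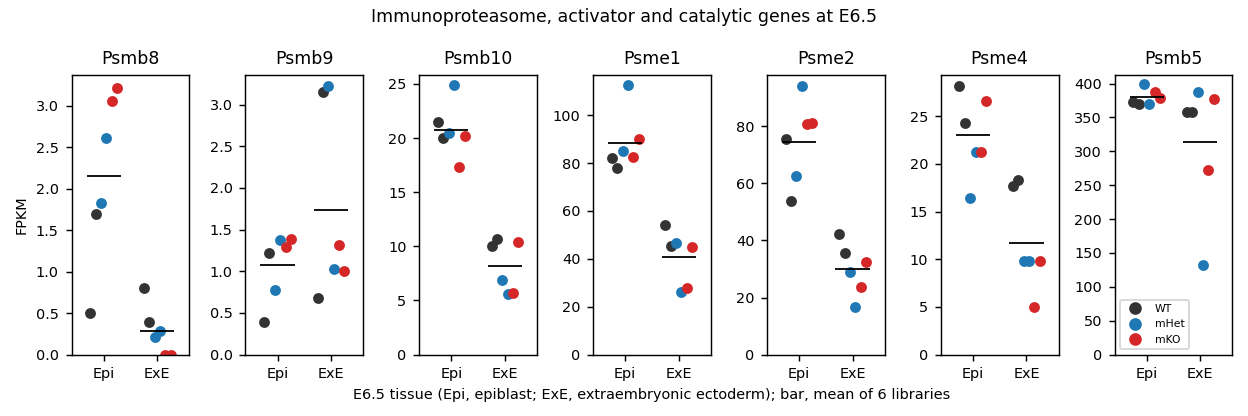
FPKM at E6.5 in epiblast and extraembryonic ectoderm of the immunoproteasome genes, 3 activators and Psmb5, with 1 point for each library, genotypes in colour and a bar at the mean of 6 libraries. Psmb10, Psme1 and Psme2 show no overlap between the tissues, and the point far below the rest of Psmb5 in extraembryonic ectoderm is mHet replicate 2.

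Other genes of the ubiquitin system were taken from a list of enzymes, receptors and regulators, of which 28 to 30 were kept in a table. At E4.25, 2 of 29 rose in mKO against WT and none fell, against 14.3% of all genes called as higher. The 2 were Ddi2, a ubiquitin-directed protease (log2 difference 1.94, SE 0.46, limma adjusted p = 0.0162), and Zfand2a, a stress-inducible proteasome-associated protein (log2 difference 1.68, SE 0.38, limma adjusted p = 0.0141). These p-values are from the FPKM as deposited. Under median ratio scaling 28 genes of the whole table passed in that comparison and with Rn45s removed 26, against 1394 as deposited. Between the tissues of E6.5, 2 of 30 fell and 1 rose in extraembryonic ectoderm, against 19.4% of all genes called as lower and 14.2% as higher. Uba6, a ubiquitin-activating enzyme, fell (log2 difference -0.78, SE 0.21, limma adjusted p = 0.0117), as did Ubqln4, which shuttles substrates to the proteasome (log2 difference -0.80, SE 0.20, limma adjusted p = 0.00735). AI314180, the mouse symbol of the proteasome adaptor Ecm29, rose (log2 difference 0.58, SE 0.18, limma adjusted p = 0.0251). In the other 16 comparisons none of the list passed.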

How the data were processed

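Polyadenylated RNA of mouse oocytes and embryos was made into Smart-seq2 libraries and read by a DNBSEQ-T7, per the labels' protocols. The authors deposited 8 tables of FPKM, and 68 libraries are in them. Both mHet libraries of E4.25 have the same value for each of 19337 genes and count as 1 library here, which leaves 67. HTSeq 0.6.0, HISAT2 2.2.1 and Trim Galore 0.4.2 are the tools in the submitters' processing notes, which also list mm9 and hg19 and give neither build a role. No source used here gives the tool behind the FPKM, the annotation, the use of strand or the treatment of reads with several matches. No step in the low values gave whole reads (at most 8.3% of low genes shared a ratio), so depth is unknown and no count test was run. Names turned into dates by a spreadsheet, 25 in the late 2-cell table and 27 in each E3.5 table, were dropped.

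Members and gene lists were chosen with earlier results of these data known. A gene stayed in a table where 2 or more libraries had 1 FPKM or higher, which left 8319 to 11028 genes. Tests ran on log2(FPKM + 1) in R 4.3.3 with limma 3.58.1 (group means over all libraries of a table, moderated spread with a trend, two-sided), and p-values were adjusted by Benjamini and Hochberg over all genes kept, with a threshold of 0.05. The tissue contrast at E6.5 is the mean over the 3 genotypes. It and the contrast of mKO effects treat all E6.5 libraries as independent, though both tissues may come from the same embryos. In epiblast columns 3 and 4, Y-linked transcripts summed to 90.7 and 0.190 FPKM in WT and 0.0692 and 82.2 in mKO. In extraembryonic ectoderm replicates 1 and 2 they summed to 34.6 and 1e-06 in WT and 0 and 44.1 in mKO. A pairing of the tissues was not tested. Named were all members that passed, the 2 with the smallest p in each direction where none did, and catalytic, immune, activator, inhibitor and chaperone genes. The code was tested on simulated data. The alternatives were a pseudocount of 0.1, no filter, median ratio scaling, removal of Rn45s, the compared groups alone, the replicate block, a term for the set of library numbers, and leaving out each library. Same-numbered libraries deviated together in no table with 3 or more pairs at a correlation over 0.1 in every pair (second E3.5 table -0.406 to 0.701, E4.25 0.059 to 0.140 for WT with mKO). In groups of 2 libraries the correlations were 0.515 to 0.557 at the 1-cell stage and 0.213 to 0.257 at the late 2-cell stage. They were 0.155 to 0.571 in the first E3.5 table, 0.710 for Het with WT oocytes and -0.162 to -0.005 in extraembryonic ectoderm. The main fits took no numbers as pairs, so a link between same-numbered libraries, as at the 1-cell stage, is not modelled in them. Promoters are from RefSeq in GRCm38.p6, a build other than mm9, and no coordinate of the authors' build was used. GSK343, an inhibitor named in the treatment protocol, is a label of no library used here.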

Additional observations from a re-analysis of the deposited data

Results flagged for a closer look

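A library was far from the others of its group in 24 of 128 groups of 4 or 5 libraries examined for the named members. Chance gives about 1 in 20 for independent groups, but 16 of the 24 came from 1 library. Members of a library share its total, so the count cannot be set against that rate. In the second E3.5 table, WT replicate 7 was far above the other 4 WT libraries in 16 members, with Psma7 at 451.1 FPKM against 89.95 to 169.4, Psmb5 at 257.6 FPKM against 34.75 to 91.51, Psmb6 at 280 FPKM against 30.5 to 95.84 and Psmb7 at 106.8 FPKM against 13.03 to 32.61. It was also at such a distance for Psmc6 at 91.18 FPKM against 30.76 to 45.62, Psmd10 at 8.36 FPKM against 0.8492 to 1.697, Psmd13 at 25.41 FPKM against 3.86 to 8.643 and Psmd14 at 50.26 FPKM against 14.04 to 23.63. The same library had Psmd6 at 52.46 FPKM against 10.61 to 21.13, Psmd9 at 5.688 FPKM against 1.873 to 2.23, Psme1 at 23.27 FPKM against 6.231 to 9.597 and Psme2 at 15.87 FPKM against 2.834 to 5.276. The remaining members in it were Psme3 at 17.04 FPKM against 4.226 to 7.573, Psme4 at 4.102 FPKM against 2.305 to 2.685, Psmg2 at 43.27 FPKM against 8.465 to 16.48 and Psmg3 at 20.05 FPKM against 3.026 to 6.39. Rn45s took 11.3% of the summed FPKM of that library, and the members summed to 4524 FPKM in it against 847 to 1792 in the other WT libraries. Replicate 7 had the highest member sum in mHet and mKO too, at 3741 and 5335 FPKM, with Rn45s at 13.1 and 9.19%. Deviations of replicate 7 from the group means correlated at 0.486 (WT with mHet), 0.701 (WT with mKO) and 0.559 (mHet with mKO). What these libraries share was not tested.

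Psmb10 in mKO replicate 7 of the second E3.5 table was 2.135 FPKM, against 0.1078 to 0.6456 in the other libraries of its group. Psmb9 in mHet replicate 6 of the second E3.5 table was 8.798 FPKM, against 2.447 to 3.765 in the other libraries of its group. Psmd9 in mHet replicate 7 of the second E3.5 table was 7.123 FPKM, against 1.645 to 2.613 in the other libraries of its group. Psmb9 in WT replicate 3 of E4.25 was 2.476 FPKM, against 0 to 0.2477 in the other libraries of its group. Psmd13 in WT replicate 1 of E4.25 was 10.55 FPKM, against 0.9269 to 2.563 in the other libraries of its group. Psmd9 in WT replicate 4 of E4.25 was 0.2788 FPKM, against 2.701 to 3.014 in the other libraries of its group. Psmg1 in WT replicate 1 of E4.25 was 12.45 FPKM, against 1.234 to 2.626 in the other libraries of its group. Psmg3 in WT replicate 1 of E4.25 was 10.84 FPKM, against 0 to 0.6166 in the other libraries of its group.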

How the results depend on the processing

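Over 18 comparisons and 209 alternative settings, the count of members called moved by more than 1.5 times in 16. In 14 comparisons no member was called under any setting. A count has no direction. The members' median log2 difference did change sign in several fits without 1 library, as given above for oocytes, 8-cell embryos and E3.5. At E4.25, where 4 members were called, 2 were called with a pseudocount of 0.1, and 0 with no filter on low values, with median ratio scaling and with Rn45s removed. The cause was not tested. The replicate block gave 8 and the term for the set of library numbers 9, the range without 1 library was 0 to 9, and in no other comparison did the block move the count by over 1.5 times. Leaving out 1 library gave 0 to 37 for mHet in the first E3.5 table (37 without WT replicate 2), 0 to 40 for mHet in extraembryonic ectoderm (40 without mHet replicate 1) and 5 to 40 for the tissues (40 without mHet replicate 1 of the extraembryonic ectoderm). In those fits the lone library left in its group is assumed to vary like the others. Groups of 2 libraries and unknown depth limit what can be called: a member that did not pass is not shown to be equal.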
